A study of Mus musculus with 6 samples.

Results

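The genes described here are 7 CXC chemokines that attract myeloid cells, Cxcl1, Cxcl2, Cxcl3, Cxcl5, Cxcl15, Ppbp and Cxcl12, and Cxcr4, the receptor of the last. They were chosen by name, as every probe set whose gene symbol in the authors' deposited table is exactly 1 of these 8. They are 8 of 20703 genes named there, and have 13 of the 45101 probe sets on the array: 3 for Cxcl1, 3 for Cxcl12, 2 for Cxcl15 and 1 for each of the other genes. The samples were 6 whole primary tumours of 4T1.2, a metastatic mouse mammary carcinoma line, with 1 array per tumour. In the 3 Bmp4 tumours the cells carried the retroviral vector pBabepuro with murine Bmp4, a secreted growth factor of the TGF-beta family. The 3 control tumours carried pBabepuro as a vector control. In both groups female Balb/c mice aged 6 to 8 weeks received 100000 cells into the 4th inguinal mammary fat pad, and tumours were taken at about 0.3 g. The labels state neither a promoter nor whether a line was 1 clone, and they do not say that each tumour came from a different mouse, so p-values cover only the spread among these samples, which may be technical. Host stromal and immune cells were part of the tissue, and in whole tumours fewer cells of a type and less RNA per cell cannot be told apart.

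CXC chemokines are small secreted proteins that guide leukocytes along a gradient. Those with a glutamate-leucine-arginine (ELR) motif ahead of the first cysteines, here Cxcl1, Cxcl2, Cxcl3, Cxcl5, Cxcl15 and Ppbp, draw neutrophils and related myeloid cells, in the mouse chiefly through CXCR2. Inflammatory signals such as IL-1 and TNF induce several of them through NF-kappaB. CXCL12 lacks the ELR motif, is made by stromal and endothelial cells, and acts on CXCR4, which myeloid cells, lymphocytes and many tumour cells carry. In the RefSeq mouse gene table the 6 ELR ligands lie in a row on chromosome 5, in the order Cxcl5, Ppbp, Cxcl3, Cxcl15, Cxcl1 and Cxcl2. Of the protein-coding genes, Pf4 alone stands among them, between Ppbp and Cxcl3. Cxcl12 is on chromosome 6 and Cxcr4 on chromosome 1.

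The array of control tumour 1 stood apart from the rest, so each comparison is given with all 6 arrays and again with that tumour omitted. Its correlation with the other arrays across probe sets was 0.66 to 0.72, while the other 5 correlated at 0.96 to 0.99. Its range of signal was narrower, with 25th and 75th percentiles of 5.04 and 7.29. On the other 5 arrays these were 4.24 to 4.44 and 7.80 to 8.01. With 6 arrays a bright gene may therefore differ upward and a dim one downward. The medians over all probe sets or genes given below are not matched for brightness. The excess of 3' over 5' signal of Actb, a measure of RNA degradation, was 1.44 to 2.33 in Bmp4 tumours and 2.62 to 5.64 in control tumours, so this measure separated the groups in both settings. The signal of the hybridization controls did so too, with 10.04 to 10.30 in Bmp4 and 10.66 to 13.01 in control tumours. The same excess of Gapdh overlapped with 6 arrays, at 1.62 to 3.13 in Bmp4 and 2.46 to 5.31 in control tumours, and did not overlap without control tumour 1, where the control values were 5.31 and 3.93. The part of these measures in the results below was not tested. Bmp4 itself, read by 1 probe set, did not separate the groups: 5.04, 4.94 and 5.51 in Bmp4 tumours 1 to 3, against 6.48, 5.93 and 4.99 in control tumours 1 to 3 (limma adjusted p = 0.499). The sources used here do not say whether this probe set reads the Bmp4 transcript of the vector. Its values therefore do not show whether Bmp4 was expressed from the vector. The epithelial keratins Krt8 and Krt18 were bright in both groups (Krt8 12.80 to 13.03 in Bmp4 and 12.10 to 13.02 in control tumours), while Epcam lay at 7.49 to 7.74 in Bmp4 and 7.81 to 8.35 in control tumours. Of 9 epithelial markers 5 had positive and 4 negative differences in both settings, and 0 passed. Their mean was 7.41 to 7.53 in Bmp4 and 7.17 to 7.73 in control tumours. Cdh1 differed by -0.29, and by -1.25 without control tumour 1. All levels are log2 RMA signal, and all differences are Bmp4 minus control on that log2 scale.

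None of the 13 probe sets passed the threshold of limma adjusted p under 0.05 in either setting. With all 6 arrays 0% of the 45037 non-control probe sets passed, and 0.00888% passed without control tumour 1. At an unadjusted p under 0.05 with 6 arrays, 1 of the 13 was higher and 1 lower in Bmp4 tumours, beside 3.89% and 1.81% of all probe sets (5.69% either way). With control tumour 1 omitted these counts were 3 higher and 2 lower, beside 7.7% and 5.72% of all (13.4% either way). Those 5 were both Cxcl15 probe sets and Cxcr4, with positive differences, and Cxcl5 and 1 Cxcl1 probe set, with negative ones. Tumour values of the groups did not overlap in 4 of the 13 with all 6 arrays, 2 higher and 2 lower, beside 10.6% higher and 14.9% lower among all probe sets (25.6% either way). In the setting of 5 arrays 3 were apart and higher and 2 apart and lower, beside 14% and 19% of all (33% either way). With 6 arrays 9 of the 13 differences were positive, with a median of 0.49 against -0.20 over all probe sets. With 5 arrays 4 were positive, and the median was -0.22 against -0.06 over all probe sets. An exact two-sided permutation test of 1 value, 3 tumours against 3, cannot go below p = 0.1.

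**Figure D1:**
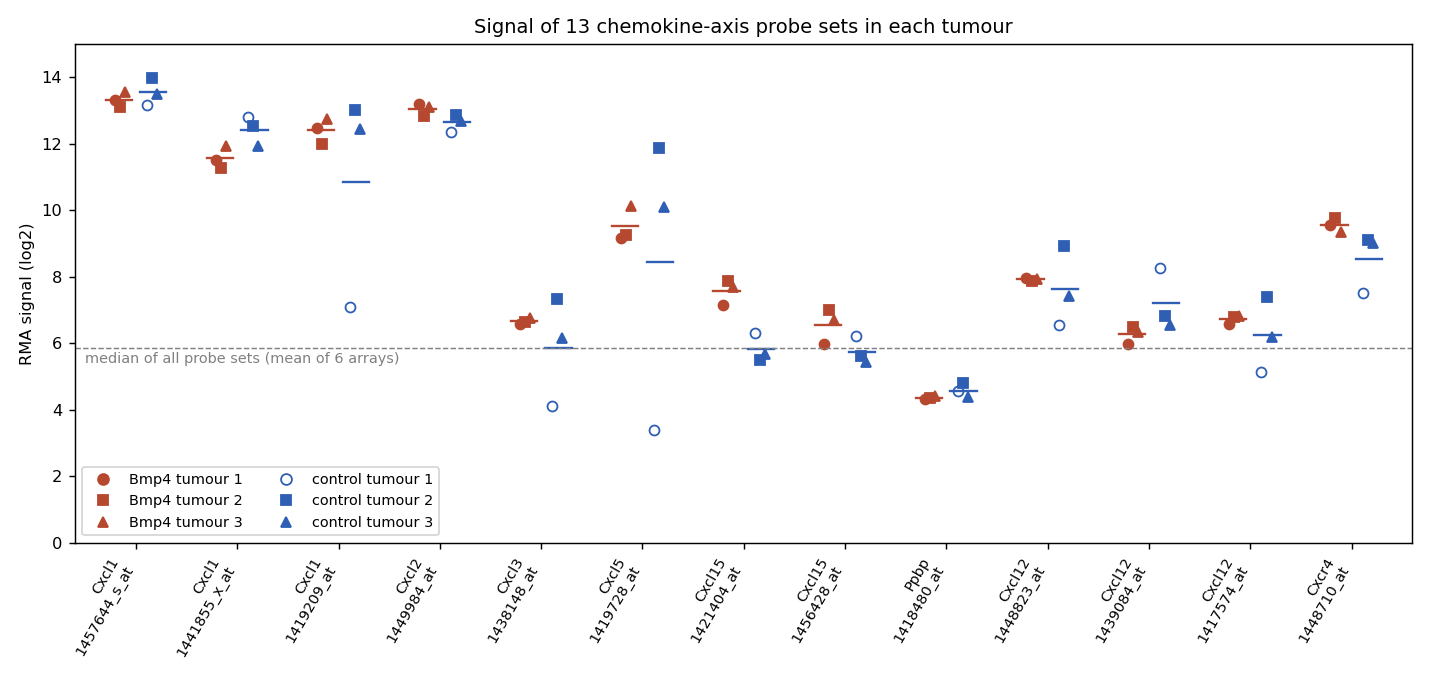
Log2 RMA signal (vertical axis) of the 13 probe sets in each tumour, with Bmp4 tumours in red left of control tumours in blue, a bar at each mean of 3 tumours and an open circle for control tumour 1. The Cxcl1 and Cxcl2 probe sets sit near the top except for the open circle at 7.08 in Cxcl1 1419209_at, and Cxcl5 runs between 3.39 and 11.86 among control tumours.

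Cxcl1, known as KC and a strong neutrophil attractant of the mouse, gave the brightest signal of these genes. Its brightest probe set, 1457644_s_at, read 13.32, 13.10 and 13.56 in Bmp4 tumours 1 to 3 and 13.16, 13.99 and 13.51 in control tumours 1 to 3. These values lay above the 99.5th percentile of every array and the groups overlapped. The difference was -0.22 ± 0.30 (SE; limma adjusted p = 0.627, 95% interval -0.95 to 0.51), and -0.42 ± 0.22 (SE; adjusted p = 0.428) without control tumour 1. The second probe set, 1441855_x_at, read 11.52, 11.27 and 11.94 in Bmp4 tumours and 12.79, 12.52 and 11.94 in control tumours. The groups met at 11.94, where Bmp4 tumour 3 and control tumour 3 differ only beyond the second decimal. Its difference was -0.84 ± 0.33 (SE; limma adjusted p = 0.499), and -0.66 ± 0.27 (SE; adjusted p = 0.368) without control tumour 1. The third, 1419209_at, read 12.47, 11.98 and 12.75 in Bmp4 tumours and 7.08, 13.01 and 12.46 in control tumours. Control tumour 1 lay far below every other tumour here, although the other probe sets placed it within or above the rest. With it the difference was 1.55 ± 1.53 (SE; limma adjusted p = 0.533), and without it -0.33 ± 0.28 (SE; adjusted p = 0.588), a change of sign. On that array the 3 Cxcl1 probe sets spread over 6.07 log2 units, against 1.46 to 1.83 on the other 5. By Affymetrix convention the suffixes _s and _x mark probe sets that may also read related transcripts, and Cxcl1, Cxcl2 and Cxcl3 are close paralogs. The 3 probe sets were all negative with 5 arrays, none past the threshold. When control tumour 2 was omitted too, their differences were -0.18, -0.37 and -0.0557 in the order above, and when control tumour 3 was omitted instead, -0.66, -0.95 and -0.61. From 6 arrays, omission of control tumour 2 alone left -0.0055 for 1457644_s_at.

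The upstream windows of Cxcl1, Cxcl2 and Cxcl3 hold a shared NF-kappaB motif, which the choice of genes did not use. RefSeq promoter windows (GRCm38.p6) were found for 7 of the 8 genes, and the 250 bases before the start were searched on both strands for a 10-base NF-kappaB motif, whose letters are the first capitals in the Cxcl1 line below. Cxcl1, Cxcl2 and Cxcl3 held it, on the gene's strand, beginning 71, 97 and 73 bases before the start. It occurred in 28 of 32851 windows (0.0852%). Only these exact letters were searched for, so NF-kappaB sites of other letters were not counted in any window. Cxcl1, Cxcl2 and Cxcl3 are close paralogs, so their matches are not independent of each other. Cxcl15, Ppbp, Cxcl12 and Cxcr4 did not hold these letters in this window. The motif TATAAA was found before Cxcl3, Cxcl15, Ppbp and Cxcr4, in the last on both strands with overlap, and in 12.4% of all windows. The element GGCGCC, bound by SMAD1 and SMAD5, was found before Cxcl12 alone of the 7, and in 9.59% of windows. Neither of the other motifs was found before that gene. The last 120 bases before the start are shown for the bright ligands Cxcl1 and Cxcl2, for their dim paralog Cxcl3 and for Cxcl15, whose difference had the smallest p of the members, on the + strand, from chr5:90891125-90891244 for Cxcl1, chr5:90903779-90903898 for Cxcl2, chr5:90785981-90786100 for Cxcl3 and chr5:90794414-90794533 for Cxcl15. Capitals mark the NF-kappaB motif and TATAAA. A match is a description of the letters, not a bound site.
Cxcl1: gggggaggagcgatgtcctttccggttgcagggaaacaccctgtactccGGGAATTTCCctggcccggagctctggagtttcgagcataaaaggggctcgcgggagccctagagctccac
Cxcl2: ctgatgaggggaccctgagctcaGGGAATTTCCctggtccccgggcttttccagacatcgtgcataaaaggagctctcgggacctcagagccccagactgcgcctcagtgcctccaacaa
Cxcl3: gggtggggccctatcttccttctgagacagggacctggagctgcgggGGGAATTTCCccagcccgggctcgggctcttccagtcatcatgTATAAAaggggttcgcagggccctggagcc
Cxcl15: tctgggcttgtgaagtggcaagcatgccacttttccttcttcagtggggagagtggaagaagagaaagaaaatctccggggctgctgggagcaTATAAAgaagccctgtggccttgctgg

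Cxcl2, or MIP-2, is the other main neutrophil attractant of inflamed mouse tissue, and its level varied least among the bright ligands. Its probe set 1449984_at read 13.20, 12.85 and 13.11 in Bmp4 tumours and 12.37, 12.87 and 12.69 in control tumours. Bmp4 tumours 1 and 3 lay above all control tumours, and Bmp4 tumour 2 lay just below control tumour 2. The difference was 0.41 ± 0.25 (SE; limma adjusted p = 0.499, 95% interval -0.20 to 1.02), and 0.27 ± 0.17 (SE; adjusted p = 0.482, 95% interval -0.13 to 0.67) without control tumour 1. Within each tumour the Cxcl1 signal of 1457644_s_at was above that of Cxcl2. The gap was 0.13, 0.25 and 0.45 in Bmp4 tumours 1 to 3 and 0.79, 1.12 and 0.82 in control tumours 1 to 3. The gaps of the groups did not overlap, with or without control tumour 1. This gap was singled out after its values were seen and was not tested.

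Cxcl3, a close paralog of both, carries the same motif but was far dimmer. Its probe set 1438148_at read 6.59, 6.64 and 6.76 in Bmp4 tumours and 4.12, 7.33 and 6.16 in control tumours. The Bmp4 tumours lay close together, and the control tumours lay on both sides of them. The difference was 0.79 ± 0.77 (SE; limma adjusted p = 0.531), and -0.08 ± 0.33 (SE; adjusted p = 0.924) without control tumour 1.

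Cxcl5, also called LIX, is an ELR chemokine made by epithelial and stromal cells, and it varied most of all the members. Its probe set 1419728_at read 9.17, 9.24 and 10.13 in Bmp4 tumours and 3.39, 11.86 and 10.11 in control tumours. Control tumour 1 sat at the 1.99th percentile of its array and control tumour 2 at the 98.21st. Control tumour 3 and Bmp4 tumour 3 were nearly level, so the groups overlapped. With all 6 arrays the difference was 1.06 ± 2.08 (SE; limma adjusted p = 0.733, 95% interval -3.95 to 6.08). With 5 arrays it was -1.47 ± 0.55 (SE; adjusted p = 0.352), 0.362-fold in Bmp4 against control tumours. Omission of control tumours 1 and 2, with control tumour 3 alone assumed to vary like the Bmp4 tumours, left -0.59. Omission of control tumours 1 and 3 gave -2.34 (limma adjusted p = 0.081). For this probe set the ratio in the authors' deposited table is 0.384, with an adjusted p of 0.530.

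Cxcl15, or lungkine, is an ELR chemokine of the mouse first described in lung epithelium, and it had the clearest difference of the members. Its brighter probe set, 1421404_at, read 7.14, 7.87 and 7.70 in Bmp4 tumours and 6.32, 5.49 and 5.68 in control tumours. The groups were apart, with all 3 Bmp4 tumours higher. The difference was 1.74 ± 0.34 (SE; limma adjusted p = 0.499, 95% interval 0.93 to 2.56, 3.35-fold), and 1.99 ± 0.24 (SE; adjusted p = 0.194, 95% interval 1.40 to 2.57, 3.97-fold) without control tumour 1. It did not pass the threshold in either setting. Control tumours 2 and 3 were at the 43.9th and 48.1st percentiles of their arrays, where the signal is dim, so the size of the fold is uncertain. The second probe set, 1456428_at, read 5.96, 7.0 and 6.69 in Bmp4 tumours and 6.21, 5.60 and 5.43 in control tumours. Control tumour 1 lay above Bmp4 tumour 1 here, and without it the groups were apart. The difference was 0.81 ± 0.37 (SE; limma adjusted p = 0.499), and 1.04 ± 0.31 (SE; adjusted p = 0.321) without control tumour 1. Both probe sets thus pointed the same way, with the second about 1 log2 unit smaller in each setting. The authors' deposited table gives ratios of 3.81 and 2.31 for these probe sets, with an adjusted p of 0.523 for each. Lung epithelium was followed through 4 markers, of which 0 passed, with a mean of 4.45 to 4.66 in Bmp4 and 4.57 to 5.38 in control tumours. All 4 had negative differences with 6 arrays and 2 without control tumour 1, beside 11546 and 11556 of 20703 genes. The surfactant gene Sftpc read 5.01 to 5.38 in Bmp4 and 5.06 to 5.34 in control tumours. Another, Sftpb, read 5.375 to 5.657 in Bmp4 and 5.668 to 7.152 in control tumours, so its groups were narrowly apart. Scgb1a1, a secretory protein of airway cells, lay below the 25th percentile on all 6 arrays.

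Ppbp encodes the platelet precursor of CXCL7, which is released and trimmed at clots. Its probe set 1418480_at read 4.33, 4.36 and 4.40 in Bmp4 tumours and 4.56, 4.79 and 4.37 in control tumours. These values lay between the 16.25th and 31.79th percentiles, so the gene was among the dimmer probe sets in every tumour. The difference was -0.21 ± 0.23 (SE; limma adjusted p = 0.561), and -0.22 ± 0.17 (SE; adjusted p = 0.564) without control tumour 1. With control tumour 2 omitted as well it was -0.0048, and with control tumour 3 in its place -0.43. Pf4, its neighbour and another platelet chemokine that macrophages can also express, was much brighter at 9.10 to 10.05 in Bmp4 and 8.51 to 10.08 in control tumours. Its difference was 0.28, and 0.43 without control tumour 1, not past the threshold. Among 8 measured markers of platelets and megakaryocytes, 0 passed, and the list's mean level was 6.46 to 6.61 in Bmp4 and 6.57 to 7.22 in control tumours.

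Cxcl12, or SDF-1, was read by 3 probe sets that disagreed on control tumour 1. The brightest, 1448823_at, read 7.97, 7.88 and 7.94 in Bmp4 tumours and 6.54, 8.93 and 7.41 in control tumours. Bmp4 tumours were within 0.1 of each other, while control tumours spread over more than 2 units on both sides. The difference was 0.31 ± 0.59 (SE; limma adjusted p = 0.731, 95% interval -1.13 to 1.74), and -0.24 ± 0.42 (SE; adjusted p = 0.802, 95% interval -1.25 to 0.77) without control tumour 1. The dimmest, 1417574_at, showed the same arrangement, with 6.58, 6.79 and 6.81 in Bmp4 tumours and 5.14, 7.39 and 6.18 in control tumours. It differed by 0.49 ± 0.56 (SE; limma adjusted p = 0.575), and by -0.06 ± 0.35 (SE; adjusted p = 0.949) without control tumour 1. The other, 1439084_at, read 5.97, 6.50 and 6.33 in Bmp4 tumours and 8.26, 6.81 and 6.56 in control tumours, with every Bmp4 tumour below every control tumour. It differed by -0.94 ± 0.49 (SE; limma adjusted p = 0.499), and by -0.42 ± 0.20 (SE; adjusted p = 0.409) without control tumour 1. Control tumour 1 was thus lowest by 2 probe sets and highest by the remaining one. Stromal and endothelial cells are its usual source. Fibroblast and pericyte markers averaged 10.31 to 10.32 in Bmp4 and 8.54 to 10.88 in control tumours, and endothelial markers 7.11 to 7.36 in Bmp4 and 6.40 to 7.89 in control tumours. On both lists control tumour 1 was lowest. With it left out the list means did not overlap and Bmp4 tumours were lower, since control tumours 2 and 3 read 10.88 and 10.40 for fibroblasts and 7.64 and 7.89 for endothelium. In that setting 8 of 10 endothelial and 6 of 10 fibroblast markers had negative differences, beside 11556 of 20703 genes. The fibroblast count was thus near the share of all genes. All 3 Cxcl12 probe sets were negative, beside 26474 of 45037 probe sets. None of these passed the threshold. The part of these cell types in the Cxcl12 values was not tested.

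Cxcr4, the signalling receptor of CXCL12, was bright, and its values were above the control range in each Bmp4 tumour. Its probe set 1448710_at read 9.54, 9.75 and 9.36 in Bmp4 tumours and 7.495, 9.10 and 9.02 in control tumours. The lowest Bmp4 tumour exceeded the highest control tumour, and control tumour 1 was far below. The difference was 1.01 ± 0.47 (SE; limma adjusted p = 0.499, 95% interval -0.13 to 2.16, 2.02-fold), and 0.49 ± 0.17 (SE; adjusted p = 0.329, 95% interval 0.09 to 0.89, 1.41-fold) without control tumour 1. It did not pass the threshold in either setting. In the authors' deposited table its ratio is 1.66, with an adjusted p of 0.523. Ackr3, the scavenging receptor that removes CXCL12, read 9.97, 9.79 and 10.40 in Bmp4 tumours and 5.23, 9.85 and 9.43 in control tumours, a difference of 1.88, and 0.41 without control tumour 1 (limma adjusted p = 0.499 and 0.456). Lymphocytes and myeloid cells carry CXCR4. Of 10 T and B lymphocyte markers all 10 had positive differences in both settings, beside 9157 of 20703 genes with 6 arrays and 9147 with 5. The list's mean was 7.79 to 8.12 in Bmp4 and 6.22 to 7.20 in control tumours. All 9 monocyte and macrophage markers were positive too, and averaged 9.75 to 10.64 in Bmp4 and 7.54 to 9.75 in control tumours, so that Bmp4 tumour 3 and control tumour 3 met at 9.75. The 16 neutrophil markers were 8 positive and 8 negative with 6 arrays. None of these markers passed the threshold alone, and their part in the Cxcr4 values was not tested.

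**Figure D2:**
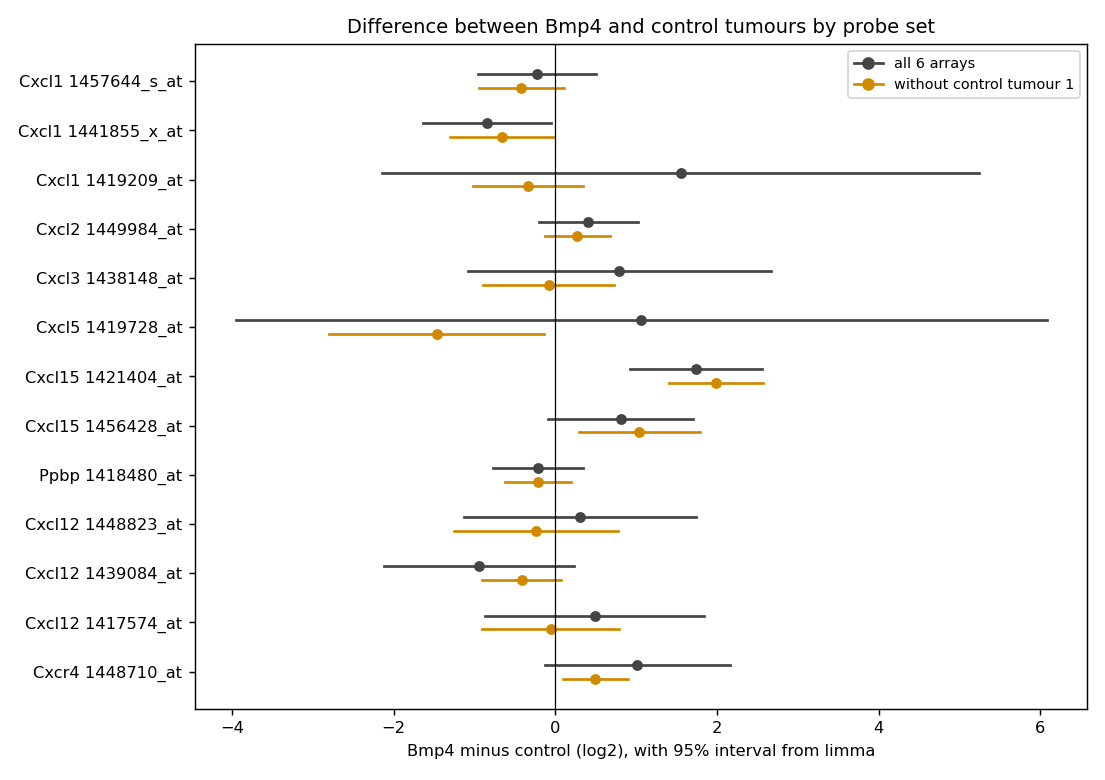
Difference of each probe set, Bmp4 minus control on the log2 scale (horizontal axis), with limma's 95% interval, with all 6 arrays in grey and without control tumour 1 in orange. Intervals narrow without that tumour, from -3.95 to 6.08 with it to -2.80 to -0.14 without it for Cxcl5, and Cxcl15 1421404_at lies above 0 in both.

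Ranked by the signal of the brightest probe set, the ligands kept nearly the same order in 5 tumours. Probe sets differ in how strongly they bind, so this is an order of array signal and not of transcript numbers. By these probe sets Cxcl1 came first and Cxcl2 second in 6 of 6 tumours. This order depended on the Cxcl1 probe set. Over the 6 tumours 1441855_x_at averaged 11.998 and 1419209_at 11.625, against 12.847 for Cxcl2, and each lay below Cxcl2 in most tumours. The Cxcl1 signal exceeded that of Cxcl2 by 0.59 ± 0.38 (SD, n = 6), so these neighbours were separated by little more than their spread. In the 5 tumours other than control tumour 1, Cxcl5 came next and Cxcl12 after it, with Cxcl2 above Cxcl5 by 2.84 ± 1.16 (SD, n = 5) and Cxcl5 above Cxcl12 by 2.07 ± 0.78 (SD, n = 5). Cxcl12 exceeded Cxcl15 in 6 of 6 tumours, by 0.83, 0.0091 and 0.24 in Bmp4 tumours 1 to 3 and by 0.23, 3.44 and 1.73 in control tumours 1 to 3. The other Cxcl12 probe sets, 1439084_at and 1417574_at, lay below Cxcl15 1421404_at in each Bmp4 tumour. Their Bmp4 means were 6.27 and 6.73, against 7.57 for Cxcl15. Cxcl15 and Cxcl3 shared the next places, with a gap of 0.08 ± 1.25 (SD, n = 5), and Cxcl15 was above Cxcl3 in the 3 Bmp4 tumours and below it in control tumours 2 and 3. Ppbp was last in those 5 tumours, 2.24 ± 0.28 below Cxcl3 (SD, n = 5). In control tumour 1 Cxcl5 was the dimmest of the 7 and lay below Ppbp.

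**Figure D3:**
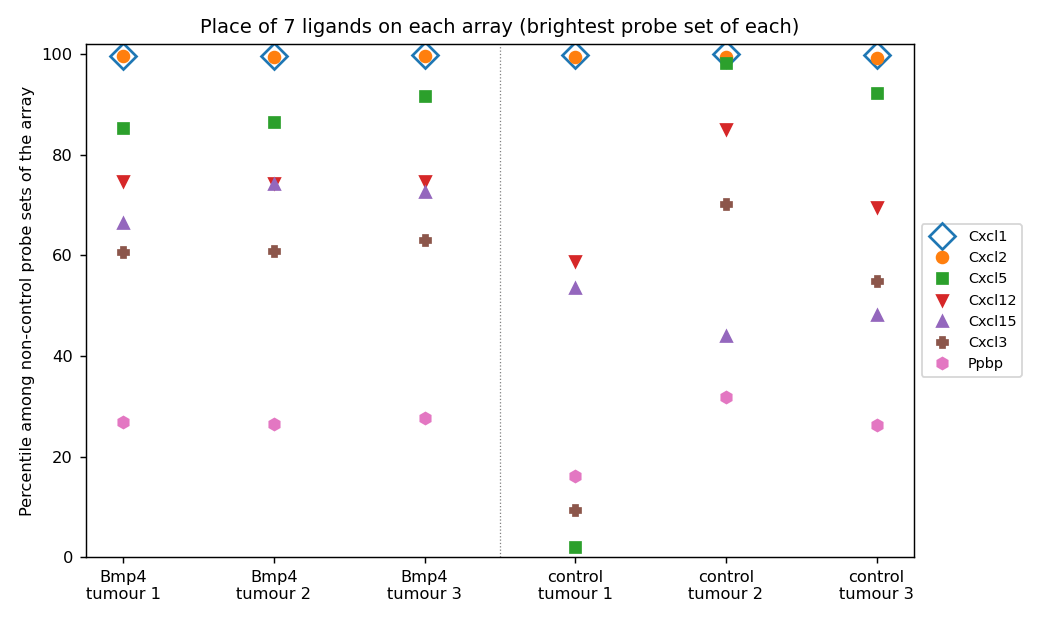
Percentile of each ligand's brightest probe set among all 45037 non-control probe sets of the same array (vertical axis), for Bmp4 tumours on the left and control tumours on the right. Cxcl1 and Cxcl2 stay above the 99th percentile in all 6 tumours, while Cxcl5 ranges from the 1.99th to the 98.21st among control tumours.

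Other genes of the chemokine network were taken from lists of receptors, related chemokines, inducers and regulators, each gene read by its brightest probe set. None of them passed the threshold in either setting. No probe set bore the name of Cxcr1 or Cxcr2, the receptors of the ELR ligands, in the authors' deposited table, so these are not analysed here. Ackr1, which binds ELR chemokines without signalling, read 7.02 to 7.54 in Bmp4 and 6.86 to 7.63 in control tumours. Of 10 other CXC chemokines and receptors, 8 had positive differences with all 6 arrays, with a median of 0.51 against -0.12 over the brightest probe sets of all 20703 genes. With 5 arrays there were 7, with a median of 0.34 against -0.04. The medians over all genes were not matched for brightness. Among these 10, with 6 arrays 2 were apart and higher and 1 apart and lower, beside 10.6% and 14.9% of all probe sets. With control tumour 1 omitted these were 4 and 1, beside 14% and 19%. Cxcr6, a receptor of T and NK cells, read 7.38, 6.54 and 8.05 in Bmp4 tumours and 5.62, 5.19 and 5.91 in control tumours, with no overlap. Its difference was 1.75 for 6 arrays and 1.77 for 5 (limma adjusted p = 0.499 and 0.303). Cxcl9, an interferon-induced T cell attractant, differed by 1.53 and then 1.03, Cxcr5, a receptor of B cells, by 0.44 and 0.87, and Cxcl16, the ligand of CXCR6, by 0.58 and 0.75.

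CC and CX3C chemokines and their receptors of myeloid cells had a median difference of 1.10 over 13 genes with all 6 arrays, and 0.62 without control tumour 1. Ccl2, the main attractant of monocytes, was among the exceptions. It read 9.51, 8.45 and 9.61 in Bmp4 tumours and 8.21, 10.83 and 10.50 in control tumours. Control tumour 1 was the lowest of all and control tumours 2 and 3 the highest. Its difference was -0.66 with 6 arrays and -1.48 ± 0.37 without control tumour 1 (SE; limma adjusted p = 0.574 and 0.303). Ccr1, a receptor of monocytes and neutrophils, differed by 1.88 and 1.44.

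Inducers and feedback genes of the ELR chemokines were mixed. Over 17 genes the median was 0.76 for 6 arrays and 0.07 for 5, where 9 were positive and 8 negative. Il1b, a cytokine that induces Cxcl1 and Cxcl2, read 12.50, 11.72 and 12.00 in Bmp4 tumours and 7.86, 11.37 and 11.33 in control tumours, with no overlap. It differed by 1.88 ± 0.96 and then 0.72 ± 0.24 (SE; limma adjusted p = 0.499 and 0.329). Tnfaip3, an inhibitor of NF-kappaB that NF-kappaB induces, differed by 1.94 and 0.43. Nfkbia, another such inhibitor, differed by -0.32 and -0.38. Il17a, a cytokine that induces ELR chemokines, differed by -0.62 and -0.32. Both had every Bmp4 tumour below the control range, though Il17a only narrowly, with 4.601 in Bmp4 tumour 2 and 4.608 in control tumour 3. Il17a was dim, at 4.54 to 5.81, below the median of the array in each tumour. With 6 arrays 2 of the 17 genes were apart and higher and 2 apart and lower, beside 10.6% and 14.9% of all probe sets. With 5 arrays these were 2 and 3, beside 14% and 19%, so the shares were near those of all probe sets. Lif, a cytokine of the IL-6 family, differed by 0.39 and -0.80, so its sign depended on control tumour 1. Csf3, the granulocyte growth factor, differed by -0.41 and -1.32, with 9.08, 7.90 and 9.92 in Bmp4 tumours and 7.55, 11.69 and 8.88 in control tumours. Control tumour 2 was highest in Csf3, Cxcl5 and Cxcl3 alike. Of 10 regulators of the CXCL12 and CXCR4 axis, 9 were positive in the comparison of 6 arrays and 7 in that of 5. Dpp4, the peptidase that inactivates CXCL12 by trimming its end, read 7.61, 7.04 and 7.42 in Bmp4 tumours and 6.15, 6.09 and 6.56 in control tumours. Its difference was 1.09 ± 0.27 for 6 arrays and 1.03 ± 0.23 for 5 (SE; limma adjusted p = 0.499 and 0.300). Cd74, which pairs with CXCR4 as a receptor of MIF and is also the class II invariant chain, differed by 1.79 and 1.37.

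**Figure D4:**
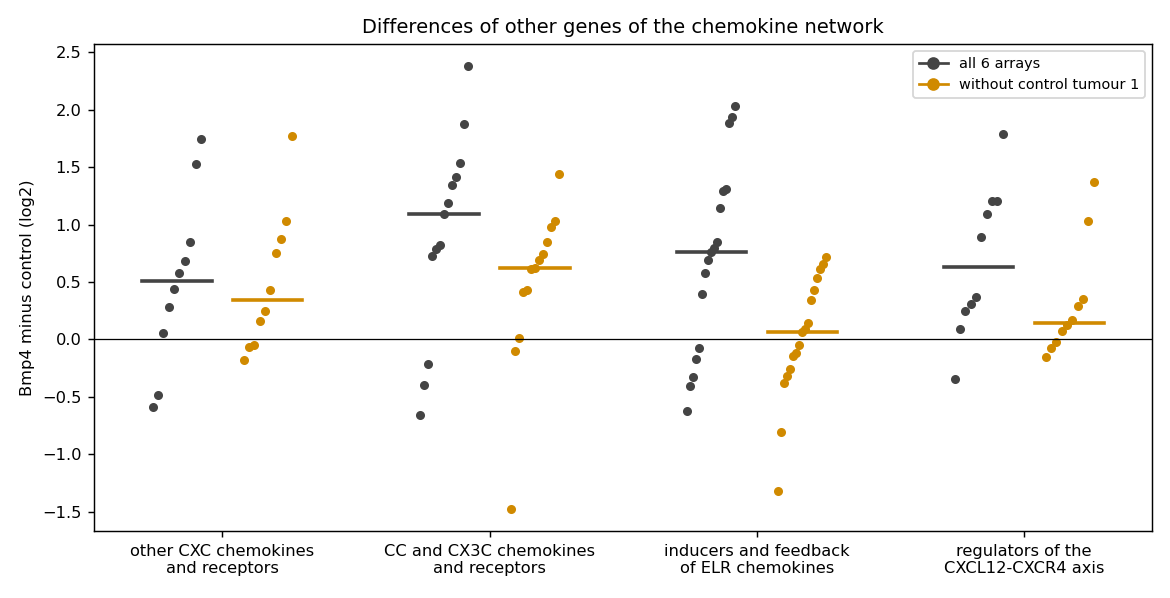
Difference of each measured gene, Bmp4 minus control on the log2 scale (vertical axis), in 4 lists of the chemokine network, with all 6 arrays in grey and without control tumour 1 in orange, and a bar at each list's median. The median of the inducers and feedback genes is 0.76 in grey and 0.07 in orange, and Ccl2 is the orange point at -1.48.

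Neutrophils, the cells that ELR ligands attract, were followed through 16 measured markers. With all 6 arrays 8 were positive and 8 negative, and the median was -0.08. With 5 arrays the median was 0.03, and 0 passed in either setting. The mean of the list was 7.55 to 7.78 in Bmp4 and 7.38 to 8.03 in control tumours, so the groups overlapped. With 6 arrays the groups did not overlap in 4 of the 16, a share near the 25.6% of all probe sets. These were Il1r2, a decoy receptor of IL-1, with higher values in Bmp4 tumours, and Mmp8, Mpo and Camp, proteins of neutrophil granules, with lower values. Camp and Mpo were apart only narrowly. Bmp4 tumour 2 and control tumour 2 read 5.642 and 5.646 for Camp, and 4.584 and 4.601 for Mpo. Other granule proteins were mixed in direction with 6 arrays. Lcn2 differed by 1.72, Mmp9 by 0.80 and Ltf by 0.08, while Ngp differed by -1.39, Prtn3 by -0.48 and Elane by -0.24. In the setting of 5 arrays Lcn2, Mmp9 and Ltf differed by 0.12, 0.03 and -0.26. Ngp, Prtn3 and Elane then differed by -1.38, -0.39 and -0.03.

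Profiles most like each member over the 6 arrays were sought among 14300 named genes, by the root mean square difference of log2 values after each gene was centred on its own mean. With 6 arrays many genes come close, and the values describe likeness only. Cxcl3, whose own SD was 1.12, was nearest to Tmem170 at 0.0897 log2 units and Nfatc2 at 0.0945. Rela, an NF-kappaB subunit, came next at 0.10. The nearest to Cxcl1 was Kif1c at 0.06 and the nearest to Cxcl2 was Metapl1 at 0.04. For Cxcl15, whose own SD was 1.02, the nearest were Anxa8 at 0.39, Phlda2 at 0.40 and Tppp at 0.44. The nearest to Cxcr4 was Bpgm, an enzyme of red cell glycolysis, at 0.07. For Cxcl5, whose own SD was 2.91, the nearest was Ifrd1 at 0.67. Colec12, a scavenger receptor of the collectin family, was among the nearest to Cxcl12 at 0.13.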

How the data were processed

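RNA of 6 whole tumours was hybridized to Affymetrix mouse arrays after 3' IVT labelling, per the labels' protocols. The deposited values are log2 signals per probe set made by the authors; RMA and Partek 6.6 appear in the submitters' processing notes. The sources used here do not say which arrays were normalized together. Per the file headers, the deposited analysis of variance lists for each probe set the ratio (Bmp4 over control), its signed fold form, the F value (a score), and p-values before and after adjustment. Its log2 ratios correlated at 0.965, across probe sets, with those of the 5 arrays other than control tumour 1, and at 0.749 with all 6.

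From the deposited log2 values, all 45037 non-control probe sets were fitted with limma 3.58.1 in R 4.3.3 (lmFit and eBayes, two-sided, Benjamini-Hochberg over all of them, threshold 0.05), with 6 arrays and without control tumour 1. Dim probe sets were kept, and the number of arrays limits the precision. Intervals are at 95%. Of 139 listed genes 128 were measured, matched through symbols or RefSeq accessions where a probe set had 1 symbol. All members were named, with up to 4 genes of each list with the smallest p without control tumour 1. A gene that this rule names is not reported here. Others were chosen after their values were seen, such as Ackr1, Pf4, Csf3, and the neutrophil and lung markers. Members and lists were chosen with earlier results of these data known. Scripts were tested on simulated data.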

Additional observations from a re-analysis of the deposited data

How the results depend on the processing

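Over 18 alternatives for a gene's brightest probe set with all 6 arrays, Cxcl15 1421404_at stayed between 1.28 and 2.02, Cxcr4 between 0.44 and 1.29 and Cxcl2 between 0.11 and 0.59. Without control tumour 1, over 17, they stayed between 1.51 and 2.20, 0.35 and 0.73, and 0.16 and 0.42. Adjusted p of Cxcl15 1421404_at ran from 0.0393 to 0.724 and from 0.0717 to 0.827. Gene-by-gene array weights, chosen after seeing the data because limma's default estimate did not converge with 6 arrays, called it at 0.0393, making 1 member and 53 of all probe sets called, and gave Cxcl1 1419209_at -0.26, Cxcl3 -0.27, Cxcl5 -1.58, Cxcl12 1448823_at -0.53 and Cxcl12 1417574_at -0.28 with 6 arrays. No other alternative called a member. Omission of 1 tumour with 6 arrays gave Cxcl1 1419209_at -0.33 to 2.63, Cxcl3 -0.0797 to 1.52, Cxcl5 -1.47 to 2.77, Cxcl12 1448823_at -0.24 to 0.96 and 1417574_at -0.0572 to 1.07, the lowest each without control tumour 1. Probe sets called numbered 0 to 4. From the 5 arrays it gave Cxcl3 -0.67 to 0.51, Cxcl12 1448823_at -0.997 to 0.52 and 1417574_at -0.67 to 0.55, the highest each without control tumour 2, and 0 to 2 probe sets called against 4. The ratios of the authors' deposited table gave -0.31, -1.38, -0.23 and -0.12 for Cxcl1 1419209_at, Cxcl5, Cxcl12 1448823_at and 1417574_at against 6 arrays, and 0.15 for Cxcl3 against 5. With 6 arrays quantile normalization gave Ppbp 0.11, and averaging each gene's probe sets gave Cxcl1 0.16 and Cxcl12 -0.0487. With 5, median centring gave Cxcl12 1417574_at 0.011. From 5 arrays, probe sets called were 7 with 75th percentile centring, 1 above the 50th percentile of signal, 0 without moderation, 2 with array weights, 2 at adjusted p under 0.01 and 0 by the authors' p. Deviations of same-numbered tumours from their group means correlated at r = -0.13, -0.22 and -0.04 across probe sets, and those of other pairs at -0.09 to 0.20. These values gave no sign of pairing by number. They cannot exclude it, since control tumour 1 stood apart and weighs on every control deviation. The replicate block called 0 probe sets in both settings and gave Cxcl12 1417574_at 0.0173 without control tumour 1. The causes were not tested, beyond fewer arrays or probe sets where these were left out. The number of arrays and the dim signals of Ppbp, Cxcl3 and Cxcl15 limit these values.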
